A study of Mus musculus with 180 samples.

Results

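Membrane and cytosolic RNA bound to ribosomes with phosphorylated S6 (pS6) were compared in the hippocampus of 30 male mice. The comparison used the 60 pS6 libraries among the 180 of the series, 30 from the membrane fraction (the pellet of the homogenate) and 30 from the cytosolic fraction (its supernatant), paired by the mouse number that ends each title. All mice came from a cross between a B6.Cg line with the transgene Tg(Camk2a-cre)T29-1Stl/J and B6N.129-Rpl22tm1.1Psam/J, so that neurons with an active Camk2a promoter carried an HA tag on the ribosomal protein Rpl22, controls included. Contextual fear conditioning (CFC) was given to 15 mice and withheld from 15 (NoCFC), and within each set 8 then slept (Sleep) and 7 were deprived of sleep (SD). The main value of a gene is its membrane minus cytosolic difference averaged over these 4 groups. The pS6 antibody binds any ribosome with the phosphorylated site, whatever the cell type, so the Camk2a-cre line does not limit these libraries to Camk2a neurons. Age and the length of sleep deprivation are not in the labels. From the same homogenates, Input RNA (no capture) and RNA on HA-tagged ribosomes (Camk2a) gave another 60 libraries each.

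Membrane libraries held 14 to 20.8 M counts and cytosolic ones 17.5 to 25.4 M. Between 21768 and 23536 genes had a count in the cytosolic libraries, and between 20135 and 29391 in the membrane ones. The libraries of mouse 19 were among those that correlated least with the rest of their groups, with a median r of 0.964 in the membrane and 0.974 in the cytosolic fraction, and counts are also given without that mouse where they moved. The labels call the cells neurons. Markers of other cells were nonetheless read, given here in CPM (counts scaled to the TMM-adjusted library total). The sum of 21 astrocyte genes was between 1300 and 4880 CPM in cytosolic and between 16200 and 51900 CPM in membrane libraries. That of 19 microglial genes was between 68.6 and 131 CPM and between 757 and 1340 CPM in the same order.

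Ribosomes that make secreted and membrane proteins are brought to the endoplasmic reticulum (ER) during translation. The signal recognition particle (SRP) binds a hydrophobic stretch as it leaves the ribosome, usually a signal peptide at the start of the protein or the first membrane span, and hands the ribosome to the SRP receptor and the Sec61 channel. Proteins whose only hydrophobic stretch lies at the very end, called tail-anchored, leave the ribosome before that stretch is exposed and are inserted afterwards. S6 is a protein of the small ribosomal subunit, and its phosphorylation rises in active neurons. The comparison asks which mRNAs on pS6 ribosomes were in the pellet, with the membranes, and which were in the supernatant.

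Coding sequence of 4 genes whose RNA was higher in the membrane fraction and 4 of the tail-anchored list shows the feature that several of the results turn on. Capitals mark the 57 bases that code for the most hydrophobic window of 19 residues near the start (first set, from the first codon) or near the end (second set, up to the last codon before the stop). The sequences are exonic and come from GENCODE vM21 transcripts on GRCm38, read 5′ to 3′ on the coding strand. For the first set, Sst lies at chr16:23889573-23890958 (minus strand), Hspa5 at chr2:34771970-34777547 (plus), Gria2 at chr3:80681450-80802835 (minus) and Ly6c1 at chr15:75044018-75048830 (minus).
Sst: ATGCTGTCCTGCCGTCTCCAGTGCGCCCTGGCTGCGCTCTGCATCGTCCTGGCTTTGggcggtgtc
Hspa5: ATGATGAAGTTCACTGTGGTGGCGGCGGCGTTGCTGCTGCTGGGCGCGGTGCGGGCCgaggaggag
Gria2: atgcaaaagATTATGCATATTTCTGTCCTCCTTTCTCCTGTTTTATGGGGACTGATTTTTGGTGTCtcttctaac
Ly6c1: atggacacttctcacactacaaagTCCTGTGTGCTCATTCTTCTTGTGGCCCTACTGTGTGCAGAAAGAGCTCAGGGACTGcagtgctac
The second set has Vamp2 at chr11:69088490-69092384 (plus), Vamp1 at chr6:125215551-125245964 (plus), Stx1a at chr5:135023482-135051100 (plus) and Sec61b at chr4:47474658-47483242 (plus).
Vamp2: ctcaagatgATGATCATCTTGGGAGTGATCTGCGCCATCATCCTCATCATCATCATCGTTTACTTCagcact
Vamp1: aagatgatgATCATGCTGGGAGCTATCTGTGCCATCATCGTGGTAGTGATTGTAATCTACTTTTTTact
Stx1a: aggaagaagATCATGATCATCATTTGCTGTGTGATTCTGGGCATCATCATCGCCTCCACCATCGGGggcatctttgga
Sec61b: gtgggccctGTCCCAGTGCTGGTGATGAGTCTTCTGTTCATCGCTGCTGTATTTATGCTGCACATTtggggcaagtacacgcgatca
On the Kyte-Doolittle scale, where a larger mean is more hydrophobic, the windows averaged 2.07 in Sst, 1.78 in Hspa5, 1.99 in Gria2 and 1.76 in Ly6c1, and 3.36 in Vamp2, 3.13 in Vamp1, 2.89 in Stx1a and 2.55 in Sec61b. The tails were thus the more hydrophobic of the 2 sets, and they differed in position: residues 1 to 19 of 116 in Sst, against residues 96 to 114 of 116 in Vamp2.

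Genes with the stretch near the start were picked as higher in the membrane fraction, and those with it near the end as tail-anchored. All were chosen with earlier results of these data known, so their sides illustrate the feature and do not test it. In every mouse these 8 genes fell on opposite sides of the comparison by set. Sst, the neuropeptide somatostatin, had 112 to 298 CPM in the cytosolic libraries (median 169) and 641 to 1391 CPM in the membrane libraries (median 969), a log2 difference of 2.43 ± 0.04 (SE, n = 30 mice). Hspa5, the main chaperone of the ER lumen, had 133 to 349 CPM (median 212) and 481 to 1518 CPM (median 683), a difference of 1.72 ± 0.05. In both genes the lowest membrane library lay above the highest cytosolic one. Gria2, an AMPA receptor subunit, was at 1.32 ± 0.04 and Ly6c1, a surface protein of endothelial cells, at 5.21 ± 0.12. Vamp2, the vesicle protein that drives transmitter release, had 3335 to 4160 CPM in the cytosolic fraction (median 3712) and 1541 to 1971 CPM in the membrane fraction (median 1707), a difference of -1.12 ± 0.02. Vamp1, its relative, was at -1.78 ± 0.03, and Sec61b, a tail-anchored subunit of the translocation channel, at -1.04 ± 0.04. Stx1a, a plasma membrane partner of Vamp2, was lower in 30 of 30 mice at -0.81 ± 0.03, a smaller difference than the fold of 2 set for a call. The plot of CPM by mouse shows 6 of these genes, without Vamp1 and Stx1a, and 6 that are described further on.

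**Figure D1:**
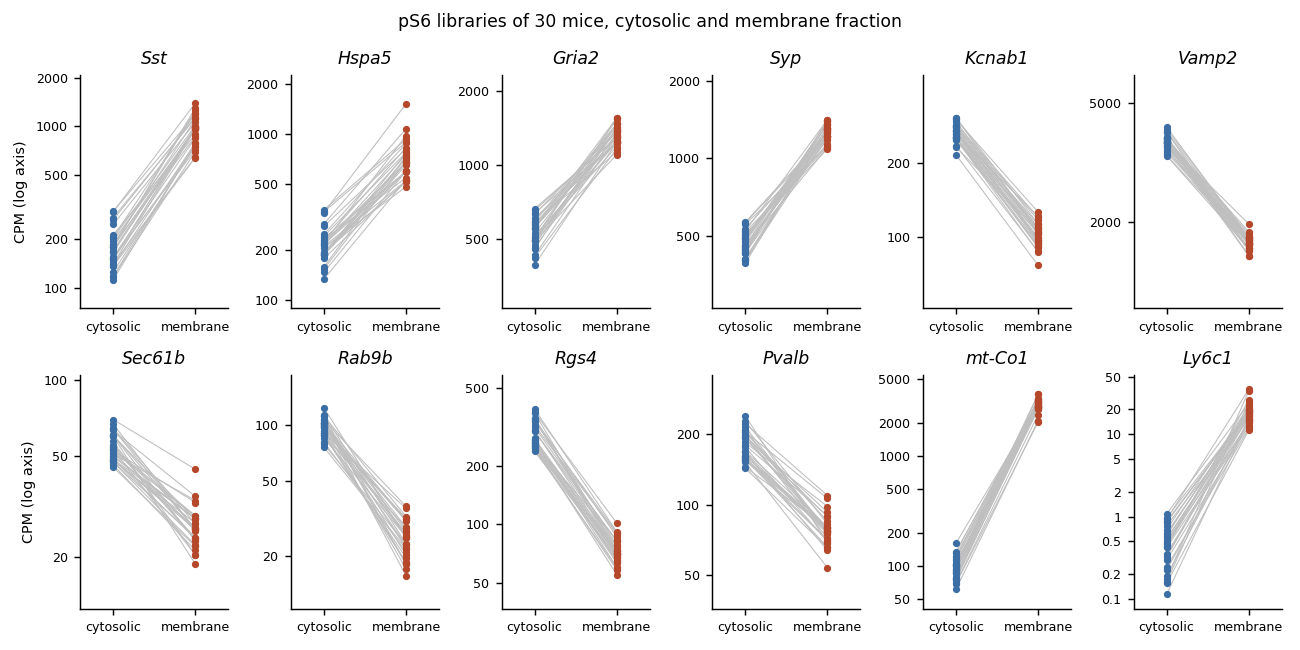
CPM of 12 genes in the cytosolic (blue) and membrane (red) pS6 library of each of the 30 mice, with a grey line per mouse and a log axis in each panel. In all 12 panels the 30 membrane values lie wholly above or wholly below the 30 cytosolic values, and the lines of all mice slope the same way.

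Over all genes, 17855 were tested. A gene was called when its adjusted p was under 0.05 and its difference at least a fold of 2 (a log2 value of 1). By that rule 4429 genes (24.8%) were higher in the membrane fraction and 2003 (11.2%) lower, with a median log2 difference of -0.07. Scaled by library totals alone, the median moved to -0.30 and the counts became 3660 and 3631, and Vamp8 (0.93), Rab13 (0.93), Hspa8 (0.80) and Sox9 (0.77), all described further on, lost their call. Sec61b lost its call with median-of-ratios size factors (-0.99), with DESeq2 (-0.99) and in mice 12 to 22 alone (-0.87). It also lost it in edgeR's glmTreat test against a fold of 2 (adjusted p = 0.178). Hspa8 and Sox9 failed that test too (adjusted p = 0.283 and 0.665). Both also lost their call with no filter on low counts, in mice 1 to 11 alone and in mice 12 to 22 alone. Of the 116 genes named in the text, 41 have exons that overlap those of another gene, among them Gria2, Sec61a1, Serp1, Kcnab1, Pclo, Bsn, Lhx6, Glul and Mir22hg. Since the strand setting of the counting is not given in the sources used here, reads of such pairs may be shared. The libraries of the fractions did not overlap at all, with the membrane above, for 2725 genes (15.3%), and with the membrane below for 2478 (13.9%). The genes behind the captures were not called: Rpl22 was at -0.03 ± 0.03, Rps6, which codes for S6, at -0.55 ± 0.03, and Camk2a at 0.71 ± 0.03.

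By the largest difference, the 10 genes furthest on the membrane side were 7 mitochondrially encoded RNAs together with Ly6c1, Cldn5 and Apoe. Cldn5, a tight junction protein of endothelial cells, had 0.152 to 1.79 CPM (median 0.774) in the cytosolic and 13.6 to 43.4 CPM (median 24.8) in the membrane libraries, at 5.0 ± 0.12. Apoe, a lipid carrier secreted mainly by astrocytes, was at 4.89 ± 0.05. Its CPM was 144 to 835 (median 203) in the cytosolic and 4641 to 16839 (median 5968) in the membrane libraries, so that the groups did not overlap. The 10 genes furthest on the cytosolic side were Clvs1 (-2.19 ± 0.05), Rgs4 (-2.0 ± 0.03), Rab9b (-2.0 ± 0.06), Phospho2 (-1.96 ± 0.04), Dr1 (-1.91 ± 0.03), Fam84a (-1.87 ± 0.03), Gng2 (-1.86 ± 0.03), Fam13b (-1.85 ± 0.04), Mir22hg (-1.83 ± 0.03) and Jazf1 (-1.83 ± 0.06). Rgs4, which shuts off G protein signals, had 237 to 392 CPM (median 272) in the cytosolic and 55.1 to 102 CPM (median 70.9) in the membrane fraction, and each of the 10 was lower in 30 of 30 mice. Rab9b is an endosomal GTPase, Gng2 a G protein subunit and Dr1 a repressor of transcription, and Mir22hg is a noncoding RNA. None of the 9 encoded proteins held a hydrophobic stretch of the kind marked above, which was also absent from 62.8% of all genes with a protein. Of the 1422 such genes called lower, 1231 had none.

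The machinery of the ER itself lay on both sides. Of 29 genes of the translocation channel and its partners, 25 were higher in the membrane fraction and 2 lower, with a median of 1.65. Sec61a1, the pore of the channel, was at 1.34 ± 0.04, with 21 to 39.1 CPM in the cytosolic and 51.7 to 112 CPM in the membrane libraries. The 2 that were lower were Sec61b and Serp1, a short stress-induced partner of the channel at -1.41 ± 0.04, and Sec61g, the third subunit of the channel, was at -0.93 ± 0.06. All 3 code for proteins of under 100 residues (96 in Sec61b, 66 in Serp1 and 68 in Sec61g), and the translocon list overlaps the tail-anchored list in them. Both subunits of the SRP receptor were higher, Srpr at 1.39 ± 0.03 and Srprb at 1.86 ± 0.04. The 7 measured genes of the particle itself, which is soluble, were all below 0, and 3 of them were called lower, among them Srp54a at -1.33 ± 0.17 and Srp54c, near copies of each other whose reads may be shared. All 23 chaperones and folding enzymes of the ER lumen were higher (median 1.91), from Erp44 at 1.31 ± 0.04 to Creld2 at 2.33 ± 0.05, and in 22 of them no membrane library overlapped a cytosolic one.

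Secreted and surface proteins of several families lay on the membrane side. Of 30 neuropeptides, granins, convertases and secreted factors 26 were higher and 0 lower (median 1.70), including Vip at 2.57 ± 0.06 and Penk, the enkephalin precursor, at 1.8 ± 0.05. Bdnf, a neurotrophin, was at 0.82 ± 0.04, under the fold of 2, with 30 of 30 mice higher. Among 48 synaptic adhesion genes 44 were higher (median 1.47), and all 48 separated the fractions without overlap. Ncam1, a cell adhesion molecule, was at 2.08 ± 0.04. Of 32 proteins anchored to the outer surface by a GPI lipid 24 were higher (median 1.45). The lowest of them was Nrn1, neuritin, at 0.17 ± 0.03 although its protein starts with a hydrophobic stretch. Lysosomal enzymes and membrane proteins, which also enter the ER, were higher in 36 of 38 genes (median 1.76), as were 19 of 29 Golgi glycosyltransferases (median 1.22) and 14 of 16 tetraspanins (median 1.89), with 0 lower in each list.

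Receptors and transporters followed. Of 24 glutamate receptor genes 22 were higher (median 1.48) and of 14 GABA receptor genes 11 (median 1.47), and none was lower. Grin2c, an NMDA receptor subunit, was the furthest at 3.28 ± 0.06, whereas Grin2b was at 2.04 ± 0.05. All 11 P-type ion pumps were higher (median 1.56), and 27 of 30 solute carriers (median 1.75), with Slc17a7, the glutamate transporter of excitatory vesicles, at 1.52 ± 0.03. The plot of differences by list sets these groups side by side.

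**Figure D2:**
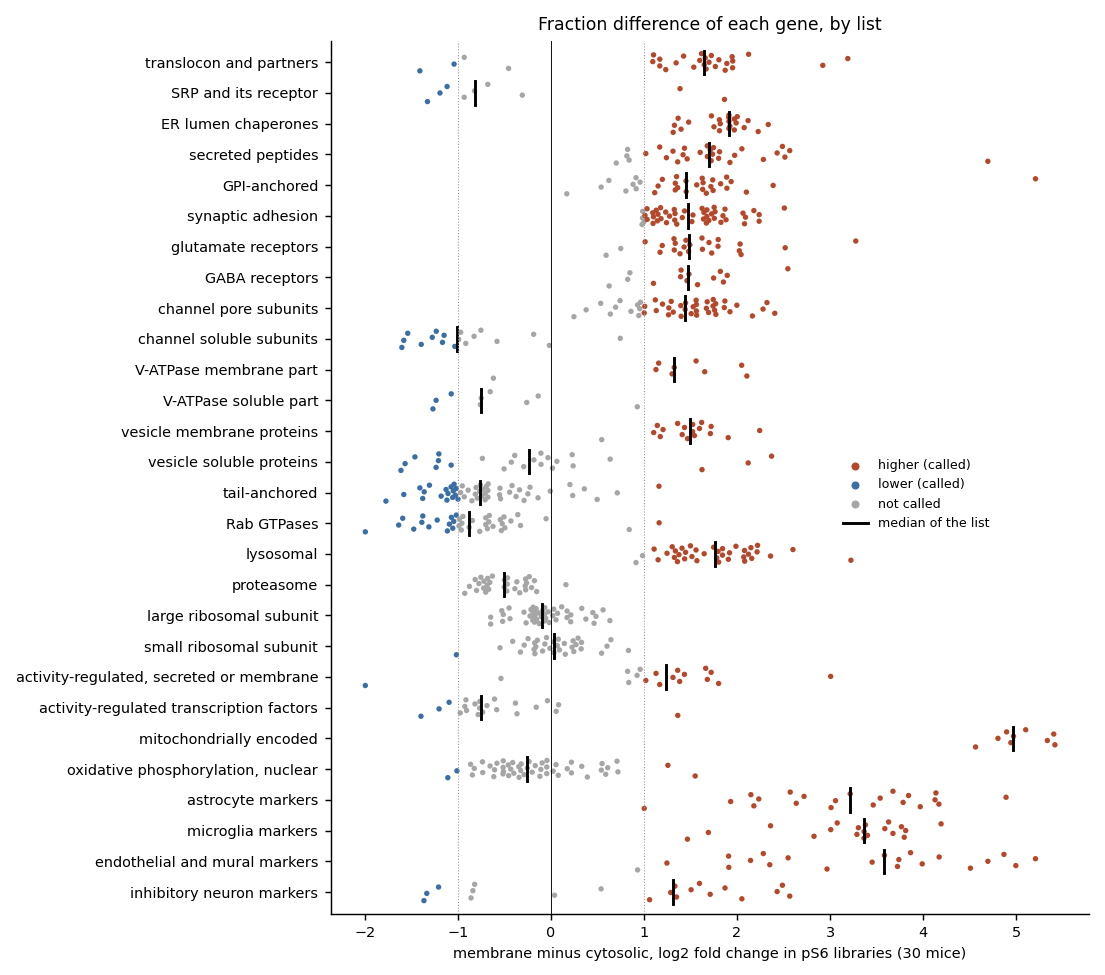
Membrane minus cytosolic log2 fold change of each gene (points) in 28 of the gene lists, coloured by call, with the median of each list as a black bar and dotted lines at a fold of 2. The medians of lists of ER-targeted proteins lie to the right of the dotted line at 1, those of the soluble partners of the same complexes to the left of 0, and those of ribosomal proteins close to 0.

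Within one complex, membrane-spanning and soluble subunits went apart. Of 46 membrane-spanning subunits of voltage-gated channels 35 were higher and 0 lower (median 1.44), whereas of 18 soluble subunits and partners of the same channels 0 were higher and 9 lower (median -1.01). Kcnab1, a soluble beta subunit that binds potassium channels from the cytosol, had 216 to 306 CPM in the cytosolic and 76.2 to 126 CPM in the membrane libraries, at -1.40 ± 0.03, and its fractions did not overlap. The vacuolar proton pump gave the same split: 8 of 9 genes of its membrane part were higher (median 1.32) and 3 of 9 of its soluble part lower (median -0.75). The member of the membrane part that was not higher, Atp6v0d1 at -0.62 ± 0.02, codes for a subunit without a hydrophobic stretch, and Atp6v1g2 of the soluble part was at -1.27 ± 0.02. In the soluble part Atp6v1a stood at 0.93 ± 0.05, also without overlap of the fractions.

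At the presynaptic terminal, 17 of 18 membrane-spanning vesicle proteins were higher (median 1.49), with Syp at 1.43 ± 0.03 and Syt1, the calcium sensor of release, at 1.36 ± 0.04. Of 24 soluble presynaptic proteins 7 were lower and 3 higher (median -0.24). Snap25, which is held at the membrane by lipid and not by a span, had 5430 to 6959 CPM in the cytosolic and 1763 to 2473 CPM in the membrane fraction, at -1.57 ± 0.02. The 3 that were higher code for large scaffold and priming proteins of the active zone, Pclo at 2.37 ± 0.05 (5068 residues), Bsn at 2.12 ± 0.05 (3942 residues) and Unc13a at 1.62 ± 0.05 (1712 residues), none with a hydrophobic stretch. Postsynaptic scaffold genes were mixed, 3 of 27 higher and 3 lower (median 0.11), with Shank1 at 1.6 ± 0.04 and Homer1 at -1.41 ± 0.03.

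Tail-anchored proteins sat on the cytosolic side. Of 53 tail-anchored genes 1 was higher and 17 lower (median -0.76), and for 28 of them all membrane libraries lay below all cytosolic ones. The one that was higher, Vamp8, was at 1.16 ± 0.08, with 3.24 to 36.0 CPM in the cytosolic and 10.3 to 42.8 CPM in the membrane libraries, which overlapped. Rab GTPases, which are made as soluble proteins and receive a lipid anchor later, were similar: 14 of 39 were lower and 1 higher (median -0.88). Rab2a, of ER to Golgi traffic, was at -1.64 ± 0.03 and Rab1a at -1.6 ± 0.03, and the exception was Rab13, of epithelial and endothelial junctions, at 1.16 ± 0.06. G protein subunits had 2 higher and 6 lower among 23 (median -0.34), and vesicle coat proteins 2 higher and 1 lower among 33 (median -0.27).

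Housekeeping proteins of the cytosol stayed near the median of all genes or somewhat below it. No proteasome gene of 31 was called, with a median of -0.50 and values from -0.93 to 0.16, and in 17 of them all membrane libraries lay below the cytosolic ones. Large ribosomal subunit genes had a median of -0.10 (0 of 46 called) and small ones 0.03 (1 of 33 lower). With library totals these medians were -0.33 and -0.20, and in mice 12 to 22 alone 0.05 and 0.17, so that neither kept its sign. Of 51 nuclear-encoded subunits of the respiratory chain 2 were higher and 2 lower (median -0.26), and of 31 carriers of the inner mitochondrial membrane, which have several spans but are imported after translation, 1 was higher and 4 lower (median -0.48), with Slc25a22 at -1.31 ± 0.03. Of 20 cytosolic chaperone genes 4 were higher and 1 lower, and the higher ones included Hsp90ab1 at 1.37 ± 0.03 and Hspa8 at 1.03 ± 0.04. Of 20 cholesterol synthesis genes 8 were higher and 0 lower (median 0.89). Cyp51, an ER enzyme, was at 2.02 ± 0.05, and the soluble enzymes Fdps and Idi1, which were not called, at -0.45 ± 0.15 and -0.52 ± 0.08.

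Features computed from the translated coding sequence were then set against the calls of 14820 genes with a protein. Of these 26.4% were higher and 9.6% lower (median 0.01). Each protein was searched for windows of 19 residues with a mean hydropathy of at least 1.6. Of 2725 genes whose first such window began within the first 50 residues, 70.1% were higher and 1.87% lower (median 1.43). Of 2540 with a first window further inside, 41.7% were higher and 4.13% lower (median 0.70). Where windows began in the last 50 residues only, and none in the first 50, 25.9% of 247 genes were higher and 14.2% lower (median -0.10). With no window 9.44% of 9308 were higher and 13.2% lower (median -0.34). In a protein of under 100 residues, a window near the end that began within the first 50 residues counted as near the start. The share higher in the end-only class was thus near that of all 14820, unlike in the tail-anchored list (1 of 53). Proteins with more stretches were more often on the membrane side: 41.5% of 2762 genes with 1 separate stretch were higher, 60.5% of 1098 with 2, 72.3% of 282 with 4 and 81.8% of 391 with 8 or more. Many signal peptides have a core shorter than 19 residues. Of the 390 genes with no window but with 10 residues of mean hydropathy of at least 2.2 beginning in the first 25, a measure chosen after the values were seen, 51.0% were higher, against 7.63% of the remaining 8918. With the minimum raised to 2, the share higher among genes with a first window further inside became 69.8% and among those with windows at the end only 40.7%. Genes are not independent replicates, so these shares are descriptions with no test.

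Among the 8918 genes with neither feature, the difference moved with the length of the protein. Of 1993 that code for fewer than 250 residues 5.12% were higher and 25.3% lower (median -0.69), of 3094 with at least 250 but under 500 residues 6.4% and 15.4% (median -0.48), of 2760 with at least 500 but under 1000 residues 7.79% and 7.64% (median -0.23), and of 1071 with 1000 residues or more 15.4% and 1.96% (median 0.21). The giant active zone scaffolds named above belong to the last class, and most Rabs and small G protein subunits to the first. With a stretch present the share higher varied little with length, between 52.9% and 58.2% over the same 4 classes.

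**Figure D3:**
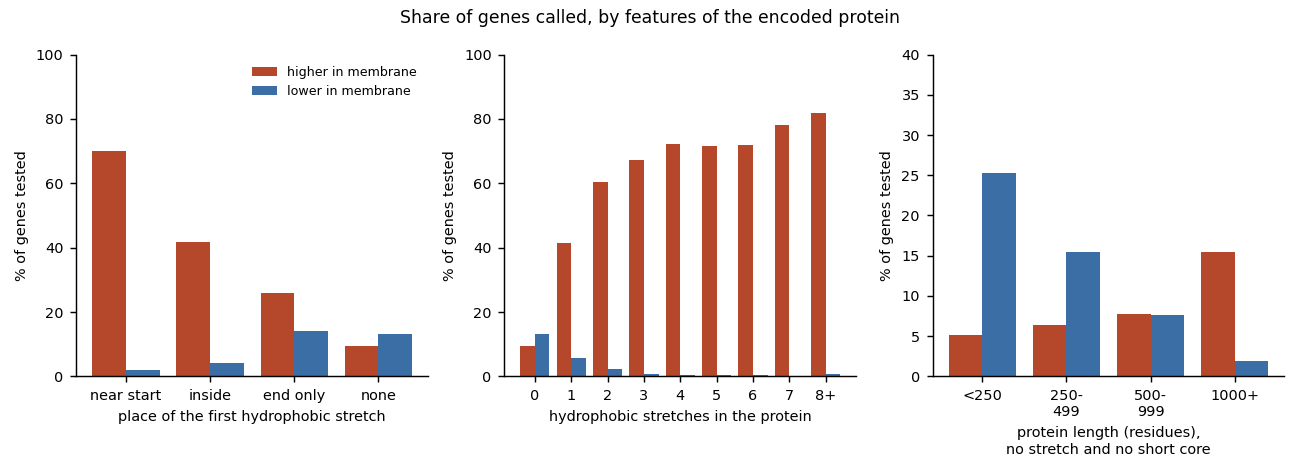
Percent of genes called higher (red) or lower (blue) in the membrane fraction, by the place of the first hydrophobic stretch, by the number of stretches, and, for proteins with neither a stretch nor a short core, by length in residues. Red bars climb from 9.44% with 0 stretches to 81.8% with 8 or more, and in the panel by length, whose axis ends at 40%, blue bars fall from 25.3% to 1.96%.

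Genes that neuronal activity induces were found on both sides. Over all genes tested 24.8% were higher and 11.2% lower, with a median of -0.07. Of 18 secreted and membrane proteins 12 were higher and 1 lower (median 1.24), with Tnfaip6, a secreted matrix protein, at 3.01 ± 0.08 and Vgf, a neuropeptide precursor, at 1.43 ± 0.05. The one that was lower was Rgs4, which has no span. Of 22 transcription factors 1 was higher and 3 lower (median -0.75), a share lower near that over all genes. Fos was at -0.69 ± 0.05, Egr1 at -0.74 ± 0.03 and Egr3 at -1.10 ± 0.03. The higher one was Klf4 at 1.36 ± 0.24, at 1.05 CPM (median) in the membrane fraction. Klf4 lost its call in edgeR's glmTreat test against a fold of 2 (adjusted p = 0.067). Of 18 cytosolic proteins 0 were higher and 6 lower (median -0.78), with Dusp5, a phosphatase of MAP kinases, at -1.55 ± 0.03 and Arc, a synaptic cytoskeleton protein, at -0.08 ± 0.03. Arc had 87.7 to 317 CPM in the cytosolic and 114 to 295 CPM in the membrane libraries. These ranges overlapped, and the membrane value was the higher one in 8 of 30 mice. Of 17 mRNAs long known in dendrites 8 were higher and 1 lower (median 0.71), with Lrp1, a large endocytic receptor, at 2.28 ± 0.05 and Nrgn, neurogranin, at -1.20 ± 0.03.

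RNA of the mitochondrial genome was the furthest from the cytosolic fraction. Of its 15 genes 9 passed the filter on low counts, and all 9 were higher, between mt-Nd5 at 4.56 and mt-Rnr2 at 5.42 (median 4.97), with no overlap in any. Their median was 3.21 in Input, which had no capture, and 6.29 in Camk2a. Whether these RNAs were bound to pS6 ribosomes was not tested. Per library, mt-Co1, a cytochrome oxidase subunit, had 61.2 to 161 CPM (median 94.4) in the cytosolic and 2051 to 3673 CPM (median 2927) in the membrane fraction. In share of all counts, mitochondrial genes took 0.0416% ± 0.00922 (SD, n = 30) of cytosolic and 1.15% ± 0.146 of membrane libraries, a paired difference of 1.11 percentage points that had the same sign in 30 of 30 mice (two-sided paired permutation test with 100000 resamples, p = 2e-05, the smallest these can give). Within the runs of mouse numbers 1 to 11, 12 to 22 and 23 to 30 it was 1.15, 1.14 and 1.00 percentage points (exact permutation p = 0.000977, 0.000977 and 0.00781).

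Markers of cell types other than neurons were on the membrane side. All 21 astrocyte, all 19 microglial and all 5 red blood cell markers were higher (medians 3.22, 3.37 and 2.51), as were 20 of 21 endothelial and mural (median 3.58), 8 of 10 precursor (median 2.04), 14 of 20 oligodendrocyte (median 1.87) and 5 of 10 choroid plexus and ependymal markers (median 1.46). Both fractions of a mouse came from the same homogenate, so these differences do not measure numbers of cells. Between mice, fewer cells of a type and less RNA per cell cannot be told apart in a bulk sample. The 15 astrocyte markers with a hydrophobic stretch had a median of 3.68, and all 6 without one were higher too, with a median of 2.21: Gfap, a filament protein, at 2.64 ± 0.04, Glul, the enzyme that makes glutamine, at 2.57 ± 0.05, S100b at 2.18 ± 0.04, Aldh1l1 at 2.23 ± 0.07, Aldoc at 1.93 ± 0.05 and the transcription factor Sox9 at 1.00 ± 0.04. Glul had 45.7 to 187 CPM in the cytosolic and 328 to 615 CPM in the membrane libraries. The globin gene Hbb-bs, also soluble and with a near copy in the genome, was at 2.67 ± 0.06. Sox10, a transcription factor of oligodendrocytes, was at -0.11 ± 0.04, and Cnp, their enzyme of myelin, at 0.32 ± 0.04. Summed over each list, the oligodendrocyte markers had 933 to 1940 CPM in the cytosolic and 2500 to 6490 CPM in the membrane libraries, the endothelial and mural ones 303 to 543 and 1570 to 2690 CPM, and the blood ones 58.8 to 328 and 371 to 1320 CPM. Choroid plexus markers ranged most, from 19.5 to 2440 CPM (median 33.7) and from 54.5 to 15200 CPM (median 118), and of all these markers Tagln alone had a median of 0 counts in a fraction. How far such cells contribute to the differences of genes outside these lists was not tested.

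Markers of neurons lay on both sides. Of 20 inhibitory neuron markers, all 12 with a hydrophobic stretch were higher (median 1.65), and of the 8 without one 0 were higher and 3 lower (median -0.85). Pvalb, the calcium buffer of fast-spiking interneurons, had 143 to 240 CPM (median 178) in the cytosolic and 53.5 to 109 CPM (median 77.1) in the membrane fraction, at -1.21 ± 0.04. Lhx6 and Dlx1, transcription factors of interneurons, were at -1.37 ± 0.05 and -0.84 ± 0.04, and Gad1, which makes GABA, at 0.04 ± 0.03. In excitatory cells Neurod6, a transcription factor, was at -1.52 ± 0.03 and in CA1 cells Wfs1, an ER membrane protein, at 2.08 ± 0.05. Of 14 excitatory neuron markers 3 were higher and 3 lower (median -0.28), of 9 CA1 markers 5 higher and 0 lower (median 1.21), of 11 dentate granule markers 4 and 2 (median -0.18) and of 9 CA3 or CA2 markers 1 and 2 (median -0.31). Of those without a stretch, 1 was higher and 3 lower of 8 excitatory, 1 and 0 of 4 CA1, 1 and 2 of 7 dentate granule and 0 and 2 of 3 CA3 or CA2 markers. Of those with one, 2 of 6, 3 of 4, 3 of 4 and 1 of 6 were higher in the same order, and 0 were lower. The remaining CA1 marker, which was higher, was not matched to a protein sequence.

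The same difference between the fractions was then set against those of the other captures, which came from the same 30 mice. Across 10100 genes with an average log2 CPM of at least 3, the pS6 difference followed that of Input with a Pearson r of 0.954 and that of Camk2a with 0.951, as descriptions over genes that share mice and fractionation. Against Input, 591 of 18174 genes (3.25%) had a larger membrane minus cytosolic difference in pS6 and 155 (0.853%) a smaller one, by a fold of 2. Against Camk2a, 117 of 18109 genes (0.646%) had a larger and 794 (4.38%) a smaller one. The 2 comparisons share the pS6 libraries. The 5 genes furthest above Input were mitochondrial, with mt-Rnr1 at 3.05 in Input, 5.40 in pS6 and 6.49 in Camk2a, so that pS6 was 2.37 ± 0.07 above Input and 1.08 ± 0.08 below Camk2a. Of the lists of ER-targeted proteins, 0 of 23 ER lumen chaperones and 0 of 48 adhesion genes were called against either capture. With so few genes called over all, 0 is near the shares given above. Their median pS6 minus Input values were 0.22 and 0.18 (0.08 over all genes). Against Camk2a the medians were 0.18 and 0.04 (0.03 over all genes). Of 30 secreted peptides 8 had a smaller difference in pS6 than in Camk2a, against 4.38% of all genes.

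Genes with a smaller difference in pS6 than in Camk2a included inhibitory neuron and glial markers. Of the 20 inhibitory markers 11 had a smaller difference in pS6 than in Camk2a and 0 a larger one, and against Input 1 was larger and 0 smaller. Pvalb was at -1.52 in Input, -1.21 in pS6 and 1.30 in Camk2a, a pS6 minus Camk2a value of -2.51 ± 0.09. Lhx6 was at -1.21, -1.37 and 0.83 in the same order, and Dlx1 at -0.81, -0.84 and 1.24, with pS6 minus Camk2a values of -2.20 ± 0.11 and -2.09 ± 0.08. On pS6 ribosomes and in Input these RNAs of soluble proteins lay on the cytosolic side, and in the Camk2a capture on the membrane side. The other genes of the 5 furthest were Lgals1 (-2.32 ± 0.13), Adamtsl5 (-2.21 ± 0.14) and Fcer1g (-2.16 ± 0.15), the last a microglial receptor chain. Microglial markers were smaller in pS6 for 15 of 19, oligodendrocyte for 10 of 20 and astrocyte for 4 of 21. Sox10 stood at -0.88 in Input, -0.11 in pS6 and 1.37 in Camk2a.

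**Figure D4:**
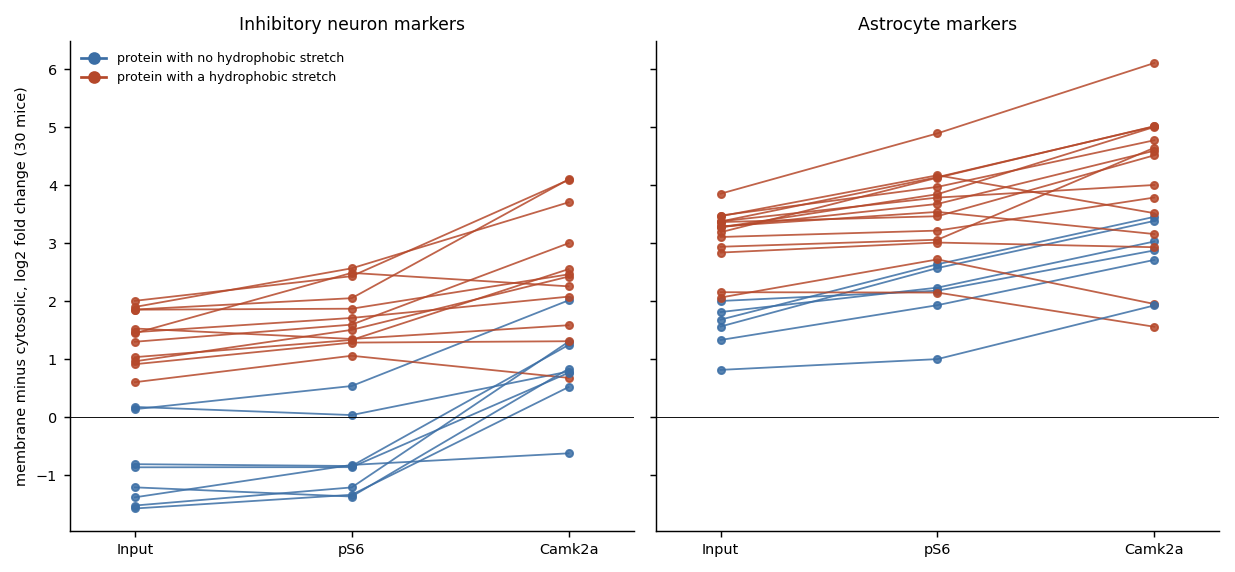
Membrane minus cytosolic log2 fold change of inhibitory neuron and astrocyte markers in Input, pS6 and Camk2a libraries of the same 30 mice, with a line per gene, red where the protein holds a hydrophobic stretch and blue where it does not. In the inhibitory panel 6 blue lines lie below 0 in Input and pS6, and 5 of them lie above 0 in Camk2a. All astrocyte lines lie above 0 in each capture.

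Of the genes with a larger difference in pS6 than in Camk2a, the 5 furthest were Spire1 (1.32 ± 0.06), an actin nucleator, Lin7c (1.32 ± 0.05), a synaptic scaffold protein, Prex1 (1.28 ± 0.07), an activator of Rac, Cald1 (1.27 ± 0.09), an actin-binding protein, and Ss18 (1.18 ± 0.08), a chromatin remodelling subunit. None codes for a hydrophobic stretch, which was also absent from 62.8% of all genes with a protein. Lin7c was at -1.34 in Input, -0.64 in pS6 and -1.96 in Camk2a. The 5 furthest below Input were Abcc4 (-1.23 ± 0.10), Chadl (-1.15 ± 0.06), Tln1 (-1.09 ± 0.06), Plpp5 (-1.06 ± 0.05) and D3Ertd751e (-1.04 ± 0.09). The last 3 of these lost their call in mice 12 to 22 alone, at -0.95, -0.96 and -0.82. Abcc4 is a membrane transporter with 0.95 in Input and -0.30 in pS6, and its fractions overlapped in pS6, at 8.07 to 15.8 CPM in the cytosolic and 6.40 to 15.7 CPM in the membrane libraries.

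Sleep and training were then compared for how far each gene lay between the fractions. No gene of 17855 (0.0%) had a fraction difference that changed with sleep deprivation at an adjusted p under 0.05, and 1169 had an unadjusted p under 0.05. DESeq2 called 2 higher and 4 lower. Nearest to the threshold was Dusp1, an activity-induced phosphatase, whose difference went from -0.56 in NoCFC Sleep and -0.68 in CFC Sleep to -1.12 in NoCFC SD and -0.92 in CFC SD, an SD minus Sleep value of -0.40 ± 0.07 (adjusted p = 0.0581). Tsc22d3, a glucocorticoid target, was at 0.28 ± 0.05 (adjusted p = 0.0693) and Egr4 at -0.32 ± 0.07 (adjusted p = 0.153). Dusp1 and Tsc22d3 passed with the number run as a term (adjusted p = 0.0352 for both) and with DESeq2 (adjusted p = 0.0016 for both), Egr4 with DESeq2 (adjusted p = 0.0401), and Tsc22d3 also with no filter on low counts (adjusted p = 0.0464). The interaction of training with sleep called 0 genes too, with 1038 at an unadjusted p under 0.05 and 2 by DESeq2.

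By training, 546 genes (3.06%) had a larger membrane minus cytosolic difference in CFC than in NoCFC mice and 711 (3.98%) a smaller one at an adjusted p under 0.05. Of these, 51.5% of the first and 1.73% of the second began with a hydrophobic stretch, and their median protein lengths were 323 and 1036 residues, against 18.4% and 465 residues over all genes. By list, 9 of 29 translocon, 9 of 48 adhesion, 7 of 14 GABA receptor and 9 of 38 lysosomal genes had a larger difference and 0 a smaller one, while 0 of 11 P-type pumps, 1 of 24 glutamate receptors, 1 of 18 vesicle membrane proteins and 2 of 30 secreted peptides had a larger one. Of the lists of soluble proteins, 15 of 32 chromatin modifiers and 14 of 29 cytoskeleton genes had a smaller and 0 a larger one. Ids, a lysosomal sulfatase, was at 0.91 and 0.94 in NoCFC Sleep and SD and at 1.35 and 1.4 in CFC Sleep and SD, a CFC minus NoCFC value of 0.45 ± 0.06 (adjusted p = 1.78e-05). Tmed7, a cargo receptor of the early secretory path, was at 0.40 ± 0.07, Tsc22d3 at 0.45 ± 0.05, the noncoding RNA Kantr at 0.53 ± 0.07 and the transcription factor subunit Nfyb at 0.30 ± 0.05. The 5 with the smallest p on the other side were the coactivator Ppargc1b (-0.88 ± 0.12), the splicing protein Srrm2 (-0.40 ± 0.06), the nuclear pore protein Ranbp2 (-0.82 ± 0.12), the remodeller Chd6 (-0.62 ± 0.10) and the corepressor Spen (-0.45 ± 0.07).

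Training cannot be told apart from the run of mouse numbers in the first 22 mice, since mice 1 to 11 were all NoCFC and mice 12 to 22 all CFC. In mice 23 to 30, with 2 of each group, 2 genes had a larger and 0 a smaller difference, and 1927 had an unadjusted p under 0.05. With the run as a term in the fit of all mice 0 genes passed in either direction. That term leaves the contrast of training to mice 23 to 30, so it is not a separate check. Mice 23 to 30 were part of the fit that called the genes. The median CFC minus NoCFC value of the adhesion list was 0.16 over all mice and 0.33 in mice 23 to 30, that of chromatin modifiers -0.23 and -0.06, and that of cytoskeleton genes -0.17 and -0.12. The number of genes detected in the membrane libraries moved with training as well, at 25908 ± 2468 (SD, n = 15) in NoCFC and 22892 ± 2724 in CFC mice, whereas the cytosolic libraries had 22398 ± 439 and 22395 ± 372. With that number as a term, an alternative added after the values were seen, 15 genes had a larger and 83 a smaller difference, 96 of them among those called before. Without mouse 19 the counts were 383 and 569. The split between larger and smaller also depended on scaling, at 434 and 950 with library totals and 1189 and 406 with median-of-ratios size factors. For the fraction comparison itself, the same term gave 4416 higher and 2021 lower genes.

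**Figure D5:**
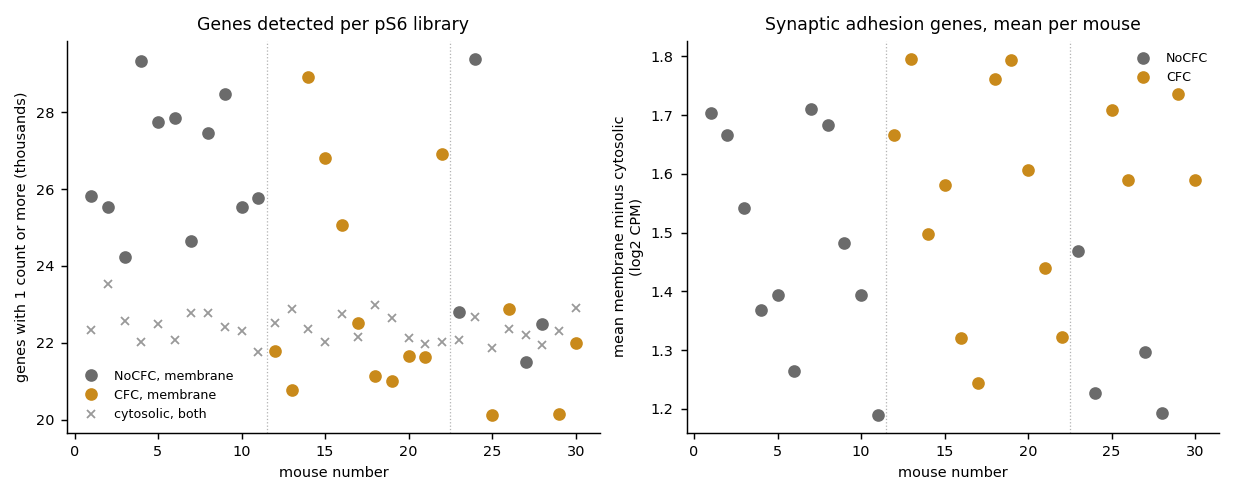
Left, genes with 1 count or more in each pS6 library, in units of 1000 genes, against mouse number, with NoCFC (grey) and CFC (ochre) membrane libraries as points and cytosolic ones as crosses. Right, mean membrane minus cytosolic difference (log2 CPM) of 48 synaptic adhesion genes per mouse. Dotted lines part the number runs; 8 of the 11 highest membrane libraries on the left are NoCFC, and the values on the right lie between 1.19 and 1.8.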

How the data were processed

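The authors deposited whole-number counts of reads per gene for each library, unnormalized, per the file headers and the values. Per the submitters' processing notes, the tools included STAR 2.6.1a, featureCounts and MultiQC 1.6a0 with GRCm38.p6; the strand setting is not given in the sources used here. Libraries were SMART-seq v4, per the labels' protocols, without molecular identifiers, so duplicate reads count as reads.

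From those counts, edgeR 4.0.16 (R 4.3.3) fitted the quasi-likelihood test with TMM scaling, filterByExpr and Benjamini-Hochberg adjustment over all genes, with a block for each mouse and a fraction effect for each of the 4 groups, averaged for the main value. In the fits of 2 captures the block was each mouse within a capture, so the pairing of captures within a mouse was not used. The limma alternative on differences per mouse used it. A called fraction or capture difference had an adjusted p under 0.05 and a fold of at least 2. Interactions with sleep and training needed the adjusted p alone. Each ± beside a log2 value is the standard error of the fit. CPM values are counts scaled to the TMM-adjusted library total. The p-values measure the spread between mice of this cross. The pS6 fit and that of pS6 with Input were first run on simulated counts in which few genes changed. The fit with Camk2a was not simulated. Far more genes changed in the data, so the simulation does not test the scaling used here.

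Pairing came from the mouse number in the titles. Deviations of the paired libraries from their group means had a median correlation of 0.275 (27 of 30 mice above 0.1) against -0.0513 for other mice of the group. No libraries were copies: the lowest chi-square per degree of freedom between libraries of a group was 6.18.

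Hydropathy was computed with Biopython 1.88 on translated coding sequences of GENCODE vM21. Named genes were the 10 largest differences each way among called genes with an average log2 CPM of at least 3, the 5 each way with the smallest p for sleep and training, the 5 largest each way for captures (called, same minimum), and members of 56 gene lists (1322 entries, of which 1303 passed the filter). Predicted genes, Rik clones and pseudogenes were passed over, and Camk2a, Rpl22 and Rps6 were always given. The members and lists were chosen with earlier results of these data known. Alternatives were the mouse block, the scaling, the filter, DESeq2 1.42.0, limma 3.58.1, glmTreat, the fold, runs of mouse numbers and the hydropathy minimum.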

Additional observations from a re-analysis of the deposited data

Results flagged for a closer look

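The membrane minus cytosolic difference differed between CFC and NoCFC mice for 546 genes in the larger and 711 in the smaller direction by the interaction test of edgeR. Those named were Tsc22d3 (0.45), Ids (0.45), Kantr (0.53), Nfyb (0.30) and Tmed7 (0.40) on the larger side, and Ppargc1b (-0.88), Srrm2 (-0.40), Ranbp2 (-0.82), Chd6 (-0.62) and Spen (-0.45) on the smaller side. With the run of mouse numbers as a term none of these 10 passed, at 0.25, 0.29, 0.38, 0.16 and 0.39 on the larger and -0.69, -0.16, -0.41, -0.39 and -0.02 on the smaller side, each in the same order and with the same sign.

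The mean difference of a gene list was checked within each group of 7 or 8 mice for a mouse that stood apart from the rest, and 8 of 204 checks found one, where chance gives about 1 in 20. Mouse 25, of the CFC Sleep group, stood apart in 3 lists: vesicle coats (-0.0463), small ribosomal subunit (-0.32) and mitochondrial carriers (-0.51). Mouse 19, of the CFC SD group, did so in the soluble part of the vacuolar pump (-0.80) and in G protein subunits (-0.21). The others were mouse 4 (NoCFC Sleep) in activity-regulated transcription factors (-0.26), mouse 12 (CFC Sleep) in activity-regulated cytosolic proteins (-0.55) and mouse 17 (CFC Sleep) in CA3 or CA2 markers (-0.29).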

How the results depend on the processing

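Settings added after the data were seen were the fits without mouse 19, with the genes detected or the number run as a term, with median-of-ratios size factors for training, and the short core. No named gene had opposite signs in the reported fit and a setting where either of the 2 called it. Named genes called in neither were not checked for sign. In the fraction and capture comparisons the more numerous side stayed the same. By training, smaller differences outnumbered larger ones as reported, and larger outnumbered smaller with median-of-ratios size factors, DESeq2 or no filter. List medians near 0 changed sign: postsynaptic scaffolds went from 0.11 to -0.12 with library totals and -0.08 in mice 12 to 22, small ribosomal genes from 0.03 to -0.20 with library totals, -0.03 with no filter, and -0.02 and -0.20 in mice 1 to 11 and 23 to 30, large ones from -0.10 to 0.05 in mice 12 to 22, aminoacyl-tRNA synthetases from -0.06 to 0.002 with median-of-ratios size factors and 0.07 in mice 23 to 30, and the median over all genes from -0.07 to 0.38 with no filter. For the fraction comparison, 4526 genes were higher and 1779 lower without the mouse block, against 4429 and 2003 with it. Higher genes numbered 7472 with no filter on low counts, out of 45621 tested in place of 17855. Lower genes numbered 3631 with library totals, 5059 at a fold of 1.5 and 1225 with glmTreat against a fold of 2. For sleep, 2 higher and 4 lower genes passed with DESeq2, 9 and 10 with no filter, and 1 and 1 with the number run as a term. For training, 315 and 379 passed without the block, 1189 and 406 with median-of-ratios size factors, 1680 and 563 with DESeq2, 1494 and 326 with no filter, 2 and 0 in mice 23 to 30, 15 and 83 with the genes detected as a term, and 0 and 0 with the number run. Training by sleep gave 2 higher genes with DESeq2, and 16 higher and 4 lower with no filter. For pS6 minus Input, higher genes numbered 350 with limma on differences per mouse, 285 in mice 12 to 22 and 267 in mice 23 to 30, and lower genes 357 with no filter. For pS6 minus Camk2a, lower genes numbered 411 with limma, and 80 were higher and 950 lower with library totals. Without the block, Sox9 (0.96) was the one named gene that lost its call. At a hydropathy minimum of 2, the percent higher was 69.8 for stretches inside, 40.7 for the end only and 13.2 for none. The cause of these changes was not tested.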

Other observations

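Further gene lists had few called genes. Of 36 splicing factors 1 was higher and 1 lower (median -0.12), of 32 transcription factors of resting neurons 2 and 3 (median -0.36), of 21 aminoacyl-tRNA synthetases 2 and 1 (median -0.06), and of 16 glycolytic enzymes 3 and 0 (median 0.26). Among 14 long noncoding RNAs 1 was higher and 0 lower (median 0.57). The machinery that inserts tail-anchored proteins had 1 higher and 0 lower of 6 (median -0.53).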
